A study of Mus musculus with 12 samples.

Results

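The apolipoproteins and the assembly of lipoproteins were followed through hepatocyte isolation and culture in single-nucleus RNA-seq. The set held 10 genes of the 32285 in the deposited matrices, namely Apob, Mttp, Apoa1, Apoa2, Apoa4, Apoa5, Apoc3, Apoe, Apoh and Apom, which were chosen by name, with earlier results of these data known. Their UMIs (unique molecular identifiers, each standing for 1 captured RNA) were summed per sample over hepatocyte nuclei, with endothelial nuclei of the same samples as a background, because endothelial cells are not a source of most of these transcripts. Of 53467 nuclei in the authors' table, 44788 were counted as hepatocyte nuclei, 15166 from Liver, 13339 from Cell Suspension and 16283 from Primary Hepatocytes, and 5435 as endothelial nuclei.

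Each of 8 male wild-type mice, 10 to 12 weeks old and fed chow, gave 3 samples. The labels name the strain C57BL6J and the study's methods C57BL/6NTac. Liver (L) was a piece of lobe cut after perfusion with EGTA and frozen. Cell Suspension (CS) was the washed product of collagenase digestion, and Primary Hepatocytes (PH) were the same cells after 24 h on collagen in medium with dexamethasone, insulin and little serum, released with trypsin. The samples of 1 mouse came from 1 animal, so the groups share animals, and in Liver the cut lobe had not been digested. Samples were mixed by 4 into 6 pools before droplet capture, and Liver and Primary Hepatocytes met in only pools 2 and 5.

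Hepatocytes secrete lipids as particles. Apolipoprotein B, lipidated in the endoplasmic reticulum by the microsomal triglyceride transfer protein (Mttp), forms the backbone of very low density lipoprotein, whereas apolipoproteins A-I and A-II build high density lipoprotein. Smaller exchangeable apolipoproteins move between particles and set how plasma lipases and hepatic receptors handle them. Nuclear RNA contains much unspliced precursor, and an unspliced UMI reports an intron-containing transcript, which is mostly nuclear, whereas a spliced UMI can come from a nucleus or from free cytoplasmic RNA caught in the droplet.

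The sums over hepatocyte nuclei ranged from 6872031 to 29023569 UMIs per Liver sample, from 2104087 to 17452582 per Cell Suspension sample and from 9852007 to 21226254 per Primary Hepatocytes sample. Hepatocyte nuclei were those in the clusters the authors named hepatocytes, isolated hepatocytes or cultured cells, without a cultured cluster that carried endothelial and one that carried stellate markers. The sample types lay mostly in different clusters. Of the Liver nuclei 98.4% lay in clusters named hepatocytes, and of those of Cell Suspension 90.4% in clusters named isolated hepatocytes. Of those of Primary Hepatocytes 99.6% lay in clusters named cultured cells, and 73 nuclei lay outside them. The cultured clusters also held 168 Liver and 750 Cell Suspension nuclei. Of these, 166 and 705 lay in cluster 8, beside 1450 Primary Hepatocytes nuclei. The median nucleus of cluster 8 held 1608 UMIs. A check list of 8 hepatocyte genes, none of them an apolipoprotein, summed to 13008 ± 1634 CPM (UMIs per 1000000 of the nuclei summed, SD, n = 8) in Liver hepatocyte nuclei, 15578.5 ± 1249.8 in Cell Suspension and 4366 ± 1383 in Primary Hepatocytes. All 8 were called lower in Primary Hepatocytes than in Liver, and in Primary Hepatocytes the same list summed to 3089.8 ± 985 CPM in endothelial nuclei. Summed stellate markers in hepatocyte nuclei ranged from 84.1 to 641 CPM in Primary Hepatocytes against 28.4 to 57.5 in Liver, with 2 of the 9 genes called higher, 0 called lower and none at 0. Summed endothelial markers ranged from 127 to 184 CPM against 38.3 to 63.3, with 6 of 11 genes called higher, 2 lower and none at 0. Leukocyte markers ranged from 53.4 to 71.7 CPM against 14.7 to 32.6 in Liver, with 2 of 7 genes called higher and 1 lower. Biliary markers ranged from 150.4 to 220.3 CPM against 132 to 194, with 4 of 6 genes called higher and 1 lower, Kupffer markers from 9.58 to 19.7 CPM against 8.42 to 18.2, with 1 of 7 genes called higher and 3 lower, and the part of any of these lists in the results was not tested. Across pools, 337 barcode sequences were used by more than 1 nucleus, 676 nuclei in all.

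The 10 genes lie at 7 places in the mouse genome (GRCm38, GENCODE M21). Apoa1, Apoc3, Apoa4 and Apoa5 form a cluster of 43340 bases on chromosome 9, with Apoa1 at chr9:46228580-46230466, Apoc3 at chr9:46232933-46235636 on the minus strand, Apoa4 at chr9:46240696-46243459 and Apoa5 at chr9:46268633-46271919. Apoc3 and Apoa4 lie head to head, 5059 bases apart. The others are Apob (chr12:7977648-8016835), Mttp (chr3:138089854-138144968, minus strand), Apoa2 (chr1:171225054-171226379), Apoe (chr7:19696109-19699188, minus strand), Apoh (chr11:108343354-108414396) and Apom (chr17:35128997-35132050, minus strand). Intron content differed widely, from 651 bases in Apoa1 to 48909 in Mttp and 69449 in Apoh outside the union of annotated exons, and levels are therefore compared only within a gene. Mttp, Apoa4, Apoa5 and Apoh overlap genes on the other strand, and Apoh also 1 on its own, and use of strand in counting is not given in the sources used here, so reads of these partners may not be told apart.

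RefSeq start sites (GRCm38.p6) gave 13 promoter windows of 300 bases, 250 before and 50 after a start, for 9 of the 10 genes, and 5 are shown from 250 bases upstream to the start, 1 for each gene with a match to a searched motif, all of which fell in culture. Capitals mark matches to TATAAA or to the FOXA-type motif TGTTTAC, on either strand. They are on the plus strand, except Apoe, at chr12:7977427-7977676 (Apob), chr1:171224804-171225053 (Apoa2), chr9:46268358-46268607 (Apoa5), chr7:19698622-19698871 (Apoe, minus strand) and chr11:108395047-108395296 (Apoh). In Apob, Apoe and Apoh the RefSeq start lies inside the GENCODE gene, so that the last bases printed for Apob and all of those for Apoe and Apoh are also GENCODE gene sequence.
Apob: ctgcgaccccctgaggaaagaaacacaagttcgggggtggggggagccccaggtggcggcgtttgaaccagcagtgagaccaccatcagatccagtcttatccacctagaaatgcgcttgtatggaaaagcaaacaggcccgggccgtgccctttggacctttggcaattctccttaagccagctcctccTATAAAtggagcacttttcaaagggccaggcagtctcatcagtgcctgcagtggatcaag
Apoa2: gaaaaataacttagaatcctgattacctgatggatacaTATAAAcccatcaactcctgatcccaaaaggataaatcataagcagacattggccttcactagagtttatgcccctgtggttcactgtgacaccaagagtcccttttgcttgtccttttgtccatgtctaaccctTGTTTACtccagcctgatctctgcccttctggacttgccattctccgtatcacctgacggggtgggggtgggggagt
Apoa5: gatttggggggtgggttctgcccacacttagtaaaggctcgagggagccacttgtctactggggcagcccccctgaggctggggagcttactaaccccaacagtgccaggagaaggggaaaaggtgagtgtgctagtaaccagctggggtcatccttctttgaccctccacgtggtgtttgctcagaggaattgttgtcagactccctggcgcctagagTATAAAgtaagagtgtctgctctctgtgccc
Apoe: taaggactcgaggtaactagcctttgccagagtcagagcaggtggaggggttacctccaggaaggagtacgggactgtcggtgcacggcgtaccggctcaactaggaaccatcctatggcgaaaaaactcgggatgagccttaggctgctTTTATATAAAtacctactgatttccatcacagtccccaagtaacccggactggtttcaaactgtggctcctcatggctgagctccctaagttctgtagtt
Apoh: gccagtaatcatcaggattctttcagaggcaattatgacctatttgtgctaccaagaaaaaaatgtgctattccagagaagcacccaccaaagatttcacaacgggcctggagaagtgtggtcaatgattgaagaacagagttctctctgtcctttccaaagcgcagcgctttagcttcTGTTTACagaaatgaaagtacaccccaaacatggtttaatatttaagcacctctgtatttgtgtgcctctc
TATAAA began 31 bases before the start in Apoa5, 60 before it in Apob, 100 and 96 before it in Apoe and 212 before it in Apoa2. TGTTTAC began 77 bases before the start in Apoa2 and 71 before it in Apoh, and 5 before another start of Apoe, whose window holds annotated UTR exons and is not printed. No searched motif matched in the Apoe window at the GENCODE start of the gene (chr7:19699139-19699438) or in the other Apoa2 window. TATAAA stood in 5 of the 13 windows and in 13.6% of all 32851 promoter windows of the table, and TGTTTAC in 3 of 13 and in 3.65%. The HNF4-type motifs CAAAGTCCA and CAAAGGTCA and the C/EBP-type motif TTGCGCAA had no match in the 13 windows and stood in 0.475%, 0.478% and 0.183% of all windows. Windows of the same gene overlap in part for Apoa5 and for Apoe, and none of the motifs overlaps another except the 2 TATAAA matches of Apoe.

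The first question was what culture did to these transcripts. In hepatocyte nuclei 9 of the 10 genes were lower in Primary Hepatocytes than in Liver and 1, Apoa4, was higher, called by edgeR with its quasi-likelihood test (26778 genes tested, adjusted p below 0.05). Among all genes tested, 26.3% were called lower and 27.4% higher. The median log2 fold change was -1.88 over the 10 genes and 0.10 over all genes. Against Cell Suspension the same 9 genes were lower and none was called higher, with 23.5% of all genes called lower and 26.9% higher, and their log2 fold changes ranged from -1.33 (Apom) to -4.78 (Apoa5), with Apoa4 at -0.46 ± 0.30 (adjusted p = 0.223). Both comparisons share the Primary Hepatocytes samples. CPM values of hepatocyte nuclei below are scaled by TMM factors, which correct for composition, unless called unscaled. Fold changes of spliced or unspliced UMIs used the library sizes and factors of all UMIs, so that the states and their sum share 1 scale, on which the median over all genes was 0.28 in spliced and 0.05 in unspliced UMIs against Liver in culture, and 0.29 and -0.10 on isolation.

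**Figure D1:**
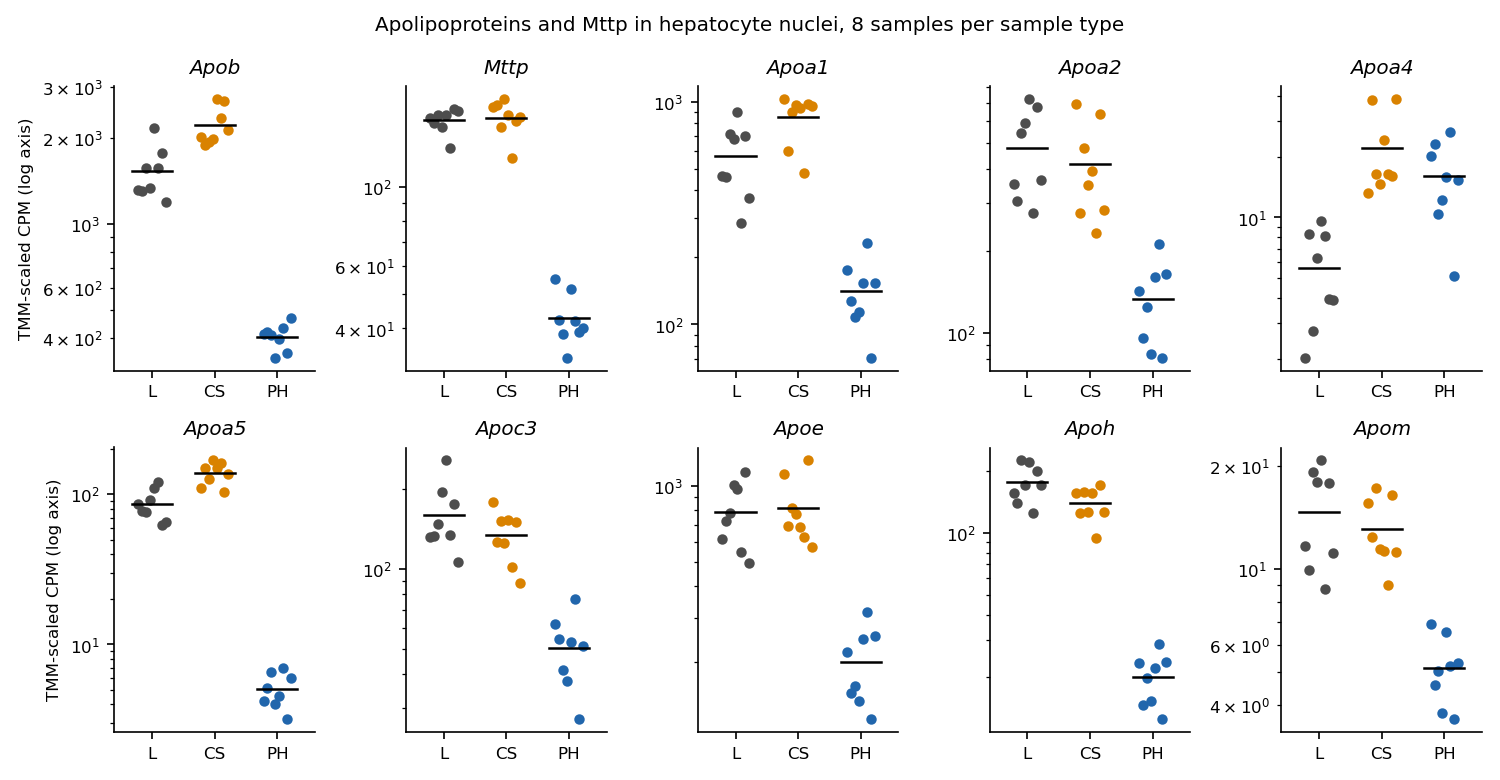
TMM-scaled CPM of the 10 genes in hepatocyte nuclei (log axes, 1 panel per gene), each point 1 of 8 samples of Liver (L), Cell Suspension (CS) or Primary Hepatocytes (PH), with a bar at the mean. In 9 panels every PH point lies below every L point, as in 16.2% of all genes tested (14.1% had every PH point above), whereas the PH points of Apoa4 overlap both other groups.

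Apob, the structural protein of very low density lipoprotein, was the member with the most UMIs, 200419 in Liver. Liver samples held 1193, 1457 and 2159 CPM (lowest, median, highest), against 1883, 2069.7 and 2734 in Cell Suspension and 341, 410.4 and 471 in Primary Hepatocytes. All 8 cultured samples lay below every Liver and every Cell Suspension sample. The log2 fold change was -1.92 ± 0.14 (SE) against Liver with an adjusted p of 2.0e-13, and -2.45 ± 0.14 against Cell Suspension (adjusted p = 1.6e-15). Apob rose from Liver to Cell Suspension by 0.53 ± 0.13 (adjusted p = 0.003), with overlapping samples. Spliced and unspliced Apob fell together in culture, with log2 fold changes of -1.57 ± 0.16 and -2.23 ± 0.16 against Liver.

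Mttp loads lipid onto nascent apolipoprotein B. Its lowest, median and highest values were 128, 157 and 165 CPM in Liver, against 120.3, 158 and 176 in Cell Suspension and 33.1, 41.1 and 55.0 in Primary Hepatocytes. The cultured samples were again below all others, with -1.84 ± 0.11 on the log2 scale against Liver (adjusted p = 2.8e-15). Isolation left no detectable change, 0.02 ± 0.10 (adjusted p = 0.912). Its spliced UMIs had a smaller log2 fold change than its unspliced ones, -0.76 ± 0.13 against -2.32 ± 0.13, and unspliced UMIs were 79.0% of all Mttp UMIs in Liver and 57.0% in Primary Hepatocytes.

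Among the proteins of high density lipoprotein, Apoa1, its main component and the activator of lecithin-cholesterol acyltransferase, varied widely between animals. Levels in Liver had a lowest, median and highest of 285, 572 and 902 CPM, against 478, 950.0 and 1028 in Cell Suspension and 70.8, 141 and 232 in Primary Hepatocytes. The log2 fold change in culture was -2.01 ± 0.23 against Liver (adjusted p = 6.1e-09), and the Cell Suspension difference of 0.58 ± 0.22 from Liver did not pass (adjusted p = 0.057), although it was higher in Cell Suspension in 8 of 8 mice. With mouse as a block the value was 0.60 ± 0.22 (edgeR adjusted p = 0.052), whereas DESeq2 called Apoa1 higher. Unspliced Apoa1 averaged 158 ± 83.8 CPM (SD, n = 8) in Liver, then 228 ± 71.5 in Cell Suspension and 10.2 ± 4.70 in Primary Hepatocytes. Its log2 fold change from Liver to culture was -3.95 ± 0.33, against -1.64 ± 0.23 for spliced Apoa1.

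Apoa2, the second protein of high density lipoprotein, showed the largest gap between the splicing states of the 10 genes. The Liver samples ran over 276, 453 and 724 CPM (lowest, median, highest), against 232, 372 and 693 in Cell Suspension and 80.7, 133 and 212 in Primary Hepatocytes. In all states together Apoa2 fell in culture (log2 fold change -1.85 ± 0.25, adjusted p = 1.6e-07) and did not pass between Cell Suspension and Liver (-0.20 ± 0.24, adjusted p = 0.628). Its unspliced UMIs went from 22.5, 53.9 and 80.0 CPM (lowest, median, highest) in Liver to 5.61, 10.3 and 19.6 in Cell Suspension and 0.113, 0.273 and 0.585 in Primary Hepatocytes. The 3 groups did not overlap. Unspliced Apoa2 was thus already lower in Cell Suspension (log2 fold change -2.15 ± 0.27, adjusted p = 2.0e-07) while its spliced level there differed by -0.09 ± 0.25 (adjusted p = 0.837), and the log2 fold change from Liver to culture was -7.32 ± 0.36, on 46 unspliced UMIs in 8 samples against 6680.

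Apom, the lipocalin of high density lipoprotein that carries sphingosine-1-phosphate, was a gene of few UMIs, 1954 in Liver and 814 in Primary Hepatocytes. Liver samples held 8.76, 14.8 and 20.8 CPM (lowest, median, highest), against 8.99, 11.9 and 17.3 in Cell Suspension and 3.62, 5.10 and 6.92 in Primary Hepatocytes. It fell in culture (log2 fold change -1.52 ± 0.18, adjusted p = 1.7e-08), with no overlap between cultured and Liver samples. Unspliced Apom was already lower in Cell Suspension than in Liver (log2 fold change -1.81 ± 0.28, adjusted p = 7.6e-06), and did not pass between Primary Hepatocytes and Cell Suspension (-0.52 ± 0.32, adjusted p = 0.185).

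Of the cluster genes that act on triglyceride handling, Apoa5, an activator of lipoprotein lipase action, had the largest fall of the 10. Its lowest, median and highest values were 62.5, 82.2 and 121 CPM in Liver, against 104, 143 and 168 in Cell Suspension and 3.16, 4.82 and 6.94 in Primary Hepatocytes. The difference from Liver was -4.10 ± 0.17 (adjusted p = 1.6e-18) and from Cell Suspension -4.78 ± 0.18 (adjusted p = 1.2e-19). Apoa5 rose during isolation by 0.68 ± 0.15 (adjusted p = 0.0011), with 1.03 ± 0.18 in its spliced UMIs (adjusted p = 3.1e-05) and -0.16 ± 0.18 in the unspliced ones, which did not pass (adjusted p = 0.561). In Primary Hepatocytes 68 unspliced Apoa5 UMIs remained in 8 samples, against 4502 in Liver.

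Apoc3, an inhibitor of lipoprotein lipase and of remnant uptake, lies beside Apoa1. Levels in Liver had a lowest, median and highest of 106, 141 and 256 CPM, against 88.6, 138 and 178 in Cell Suspension and 27.1, 52.0 and 76.7 in Primary Hepatocytes. It fell in culture (log2 fold change -1.66 ± 0.19, adjusted p = 5.4e-09), more in unspliced (-2.73 ± 0.25) than in spliced UMIs (-1.57 ± 0.21). Between Cell Suspension and Liver neither the sum (-0.25 ± 0.18, adjusted p = 0.366) nor the spliced (-0.29 ± 0.21, adjusted p = 0.326) or unspliced UMIs (-0.19 ± 0.23, adjusted p = 0.594) passed. Scaled by factors of spliced UMIs alone, spliced Apoc3 gave -0.63 ± 0.20 (adjusted p = 0.023), so that call rested on the scaling.

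Apoa4, a lipid-binding protein that hepatocytes raise in fasting and steatosis, moved the other way. The Liver samples ran over 2.02, 5.14 and 9.59 CPM (lowest, median, highest), against 13.2, 16.4 and 38.5 in Cell Suspension and 5.14, 15.6 and 26.6 in Primary Hepatocytes. Every Cell Suspension sample was above every Liver sample, and the Primary Hepatocytes samples overlapped both. Apoa4 rose by 1.98 ± 0.32 from Liver to Cell Suspension (adjusted p = 2.3e-05) and was 1.53 ± 0.31 above Liver in culture (adjusted p = 1.0e-04). With pool as a covariate the latter value was 0.95 with an adjusted p of 0.083. It was 0.94 within pool 2 (1 Primary Hepatocytes and 1 Liver sample) and 0.42 within pool 5 (2 and 1). The rise in culture was called in spliced UMIs (1.56 ± 0.30). Unspliced Apoa4 did not pass (0.15 ± 0.55, adjusted p = 0.841), with an SE too wide to exclude a rise. Against Cell Suspension it was lower (log2 fold change -2.41 ± 0.49, adjusted p = 8.7e-05). These values rest on 32, 78 and 44 unspliced UMIs in Liver, after isolation and in culture, and the difference between the states was not tested.

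Apoe, the ligand through which remnants bind hepatic receptors, is also made by macrophages. Liver samples held 493, 753 and 1132 CPM (lowest, median, highest), against 571, 733 and 1261 in Cell Suspension and 118, 190.2 and 315 in Primary Hepatocytes. It fell in culture (log2 fold change -1.97 ± 0.21, adjusted p = 2.5e-09) and did not change detectably on isolation (0.06 ± 0.21, adjusted p = 0.881). Of its UMIs in Liver 87.7% were ambiguous, meaning that they fit both a spliced and an unspliced transcript, so its states describe a small part of its signal. Unspliced Apoe was 54.9 ± 14.5 CPM in Liver, then 28.4 ± 8.85 in Cell Suspension and 1.73 ± 0.323 in Primary Hepatocytes (mean ± SD, n = 8). The log2 fold change from Liver was -0.98 ± 0.16 after isolation (adjusted p = 2.4e-05) and -4.99 ± 0.20 in culture (adjusted p = 8.0e-20). Apoe was also high in Kupffer nuclei, the liver's macrophages, with 3830 UMIs or 1287 unscaled CPM over the 8 Liver samples, and 3 of 7 Kupffer markers were also lower and 1 higher in the cultured hepatocyte sums, whose part in the Apoe values was not tested.

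Apoh, or beta-2-glycoprotein I, binds anionic phospholipids in plasma. Its lowest, median and highest values were 124, 170.5 and 224 CPM in Liver, against 94.5, 141 and 169 in Cell Suspension and 12.4, 20.8 and 28.9 in Primary Hepatocytes. It fell in culture (log2 fold change -3.14 ± 0.17, adjusted p = 4.9e-16), and its difference on isolation did not pass (-0.34 ± 0.16, adjusted p = 0.126). It was lower in Cell Suspension than in Liver in 8 of 8 mice, with -0.34 ± 0.15 by the fit with mouse as a block (edgeR adjusted p = 0.115). Unspliced Apoh was lower than in Liver after isolation (log2 fold change -0.63 ± 0.14, adjusted p = 9.4e-04) and in culture (-4.75 ± 0.17), against -1.94 ± 0.21 for spliced Apoh.

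In all states together, 3 of the 10 genes were called on isolation, with Apob, Apoa4 and Apoa5 higher in Cell Suspension and none lower. The background was 8.15% of all genes called higher and 14.2% lower. That background moved with the scaling, since the share of higher among called genes was 36.5% here, 49.3% with DESeq2 and 19.9% with library size alone, where 1 of the 10 genes was called lower. By edgeR, 1 more gene, Apoh, had an unadjusted p under 0.05 in the lower direction, and DESeq2 called none lower. Within mice, Apob, Apoa1, Apoa4 and Apoa5 were higher in Cell Suspension than in Liver in 8 of 8 and Apoh was lower in 8 of 8, as were 5.7% and 13% of all genes tested. The fit with mouse as a block called the same 3 genes higher and none lower.

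In unspliced UMIs alone, scaled by factors of their own (22594 genes tested), 4 genes were lower in Cell Suspension than in Liver, namely Apoa2, Apoe, Apoh and Apom, and 2 were higher, Apob and Apoa4, while 15.7% of all genes were called lower and 8.68% higher. Against Liver, 9 unspliced transcripts were lower in Primary Hepatocytes and none higher, on a background of 26.5% lower and 27.1% higher. Against Cell Suspension 9 were lower, with Apoa4 in and Apom out, on a background of 23% lower and 26.3% higher. The median log2 fold change of the 10 unspliced transcripts against Liver was -3.24, and that of all genes 0.15. The unspliced call of Apob on isolation was lost when any 1 of mice 1, 2, 4, 6, 7 and 8 was left out. It was also lost on the scale of all UMIs (0.29 ± 0.15, adjusted p = 0.18), where the same 4 genes were lower and 1, Apoa4, higher, with 21.5% of all genes lower and 5.77% higher. In spliced UMIs on that scale 6 genes were higher on isolation, namely Apob, Mttp, Apoa1, Apoa4, Apoa5 and Apoe, and none lower, with 24.1% of all genes higher and 6.51% lower. Scaled by factors of spliced UMIs alone, Apob, Apoa4 and Apoa5 were higher and Apoc3 lower.

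**Figure D2:**
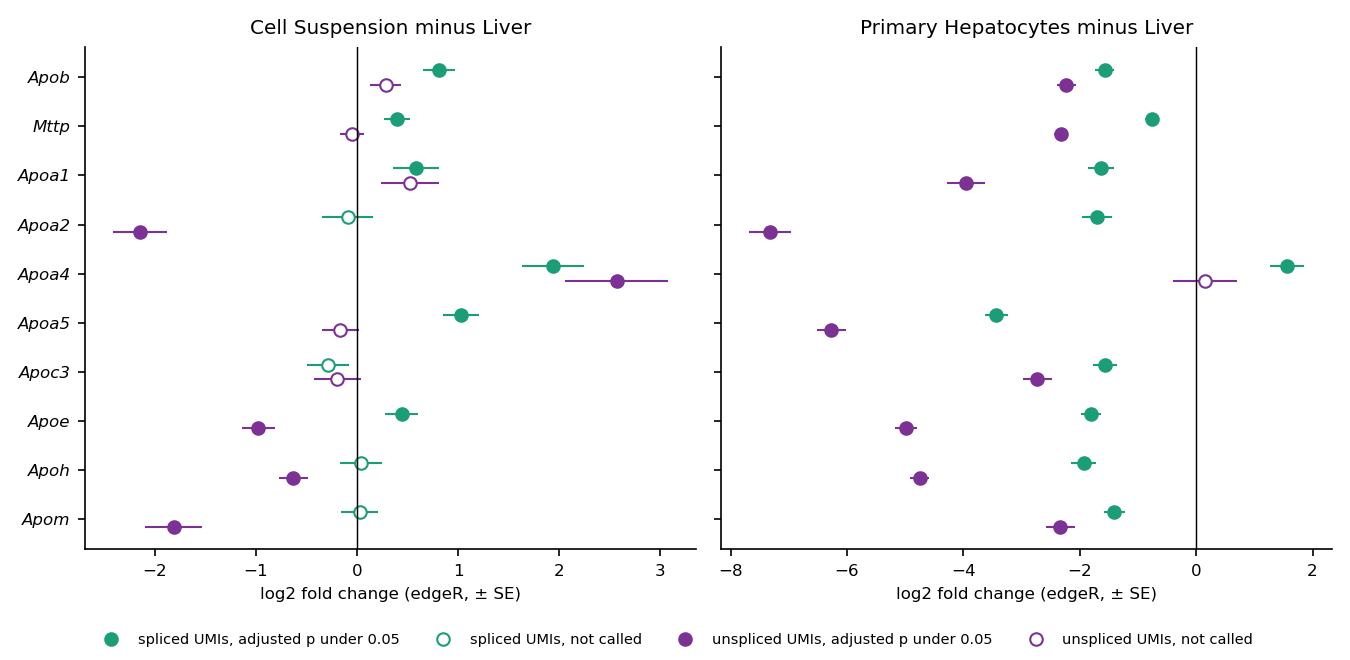
Log2 fold changes (edgeR, ± SE, both states scaled by the factors of all UMIs) of spliced and unspliced UMIs of each gene in hepatocyte nuclei, Cell Suspension minus Liver and Primary Hepatocytes minus Liver, filled where the adjusted p was under 0.05 and open where not. Against Liver the unspliced values of Apoa1, Apoa2, Apoa5, Apoe and Apoh lie at -3.95 or lower and left of the spliced ones, and on isolation Apoa2, Apoa5, Apoe and Apom show gaps of over 1.

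The spliced share, spliced over spliced plus unspliced UMIs per sample, put this on 1 scale. It was higher in Primary Hepatocytes than in Liver in all 10 genes by a two-sided exact permutation test of 8 against 8 samples, with p adjusted over 16754 genes and 3 contrasts. The same test called 41.2% of those genes higher and 4.54% lower, with a median difference of 2.82 points. Over the UMIs of all genes together the Liver share was 19.5% ± 1.74, against 27.2% ± 3.02 in Cell Suspension and 29.1% ± 1.58 in Primary Hepatocytes (SD, n = 8), 9.59 points from Liver to Primary Hepatocytes. The differences of Apoc3 (6.69 points) and Apoa4 (3.37) were smaller than that, and those of Apom (9.95), Apob (10.8) and Apoa2 (11.1) little larger, whereas those of Apoh, Apoe, Apoa5, Mttp and Apoa1 ranged from 19.4 to 44.8. The share has a ceiling, which limits such differences. Apoa2 went from 88.6% in Liver to 99.7% in Primary Hepatocytes, and Apoc3 and Apoa4 started at 87.3% and 94.5%. Between Cell Suspension and Liver 7 of the genes were called higher and none lower, on a background of 36.6% higher and 1.74% lower, and against Cell Suspension 7 were higher and 1 lower in Primary Hepatocytes, with 9.84% and 11.6% of all genes. By the unadjusted exact permutation p under 0.05, none was lower on isolation either.

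The largest shift was that of Apoh, 29.5% ± 5.13 in Liver, then 39.8% ± 6.40 in Cell Suspension and 74.2% ± 4.67 in Primary Hepatocytes (exact permutation p = 1.6e-04 between Liver and Primary Hepatocytes, the smallest this design can give, adjusted p = 0.0013). Apoa5 had 56.7% ± 5.03 in Liver, then 75.2% ± 4.17 in Cell Suspension and 90.2% ± 5.66 in Primary Hepatocytes. Apoe had 44.2% ± 9.04 in Liver, then 68.1% ± 5.43 in Cell Suspension and 87.7% ± 2.76 in Primary Hepatocytes, but on the small part of its UMIs that were not ambiguous. With ambiguous UMIs counted as spliced its share went from 92.8% ± 1.64 in Liver to 99.1% ± 0.362 in Primary Hepatocytes, 6.29 points in place of 43.5, whereas Apoh gave 44.6 points and Apoa5 31.6. In these 3 genes Cell Suspension lay between the other groups. Apoa1 rose in culture, with 72.8% ± 6.48 in Liver, then 73.0% ± 3.88 in Cell Suspension and 92.3% ± 3.68 in Primary Hepatocytes, and its difference on isolation was 0.143 points (exact permutation p = 0.961). Apom had its highest share in Cell Suspension, 74.7% ± 4.51 in Liver, then 91.0% ± 3.48 in Cell Suspension and 84.6% ± 4.19 in Primary Hepatocytes, and was the 1 gene whose share fell from Cell Suspension to Primary Hepatocytes (exact permutation adjusted p = 0.024).

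**Figure D3:**
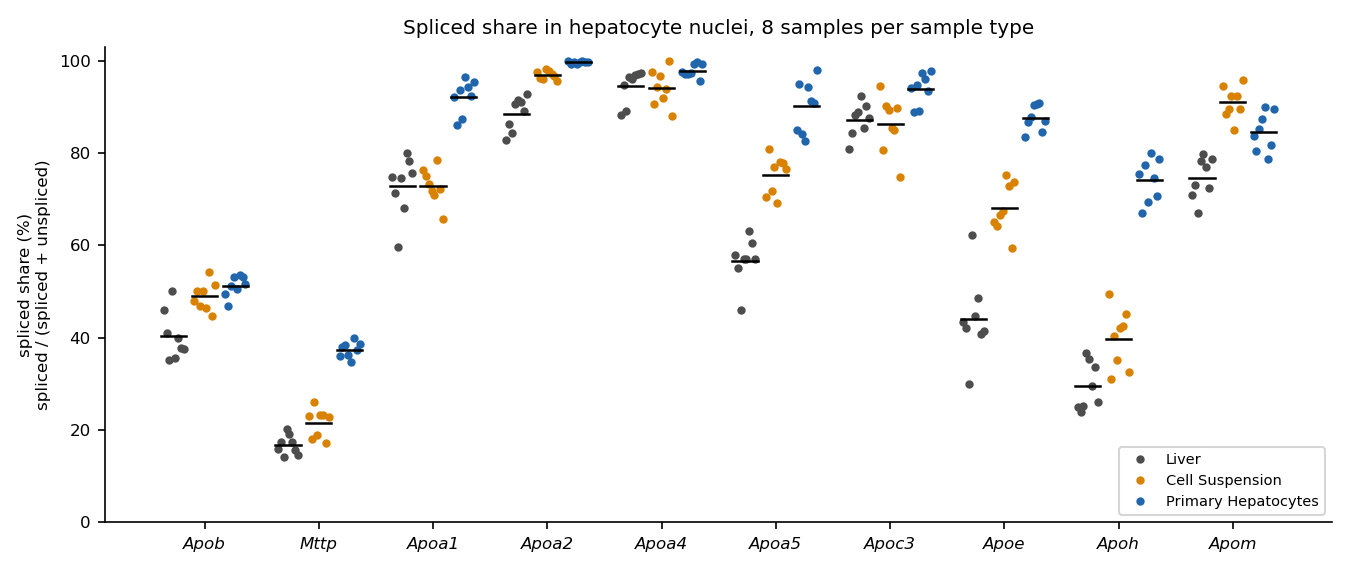
Spliced share (percent of spliced plus unspliced UMIs) of each gene in hepatocyte nuclei, 8 points per sample type with a bar at the mean. PH points of Mttp, Apoa1, Apoa2, Apoa5, Apoe and Apoh lie above all L points, as in 18.8% of all genes compared, and Apoa2, at 99.7% in PH, is at the top of the scale.

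Endothelial nuclei of the same samples were taken as a background, which includes free RNA. There the 10 genes together made 1392 ± 523 unscaled CPM in Liver and 1296 ± 453 in Primary Hepatocytes, against 3548 ± 665 and 1353 ± 227 in hepatocyte nuclei (SD, n = 8). In Primary Hepatocytes the sums of the 2 nuclei types thus differed by less than 1 SD. Of the 10 genes, Apoe was called lower in endothelial nuclei of Primary Hepatocytes than of Liver (-0.66 ± 0.22, adjusted p = 0.017) and Apoa4 higher (2.71 ± 0.46, adjusted p = 8.1e-06), with 18.4% of 18279 genes called lower and 15.4% higher. The log2 fold changes of the other 8 ranged from -0.57 to 0.26. Against Cell Suspension the endothelial background of Apob was called lower (-0.65 ± 0.22, adjusted p = 0.034), beside -2.45 ± 0.14 in hepatocyte nuclei, and no other member was called, on 10.7% of all genes lower and 9.33% higher. In unspliced UMIs of endothelial nuclei, of 9 genes tested 4 were lower in Primary Hepatocytes than in Liver, namely Apoe (-3.58 ± 0.61), Apoa2 (-3.18 ± 0.90), Apoa5 (-2.35 ± 0.85) and Apoa1 (-1.07 ± 0.41), and none was higher, on a background of 16.8% of 15349 genes lower and 14.2% higher. Against Cell Suspension 2 were lower, Apoa1 and Apoe, with 9.19% of all genes lower and 8.26% higher. Few unspliced UMIs underlay the 4 endothelial falls against Liver. From Liver to Primary Hepatocytes these were 84 and 2 for Apoe, 41 and 1 for Apoa2, 20 and 1 for Apoa5 and 158 and 26 for Apoa1.

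The splicing states divided this background. In unscaled CPM, spliced Apoa1 in Primary Hepatocytes was 170.4 ± 55.0 CPM in hepatocyte and 205 ± 73.5 in endothelial nuclei, and spliced Apoa2 was 159.9 ± 47.1 CPM in hepatocyte and 253 ± 119 in endothelial nuclei. In CPM, spliced UMIs of these genes in cultured hepatocyte nuclei were therefore at or below the endothelial level. That comparison depends on depth, which was lower in endothelial nuclei. Spliced Apoa1 had 20373 UMIs in 16283 hepatocyte and 780 in 1809 endothelial nuclei of Primary Hepatocytes, and spliced Apoa2 18958 and 936. Counted per nucleus, both were thus higher in hepatocyte nuclei. Unspliced UMIs of Apob and Mttp lay above the endothelial level without overlap, with unspliced Apob at 253 ± 26.6 CPM in hepatocyte and 97.1 ± 37.8 in endothelial nuclei and unspliced Mttp at 32.2 ± 5.22 CPM in hepatocyte and 14.5 ± 3.90 in endothelial nuclei. Droplets of at most 50 UMIs in pools with Primary Hepatocytes, which also held other sample types, did not show that separation. There unspliced Apob ranged from 323 to 548 CPM and unspliced Mttp from 35.6 to 54.6. The cultured hepatocyte samples ranged from 216 to 301 and from 27.9 to 42.4. Unspliced Apoh, at 5.79 ± 1.19 CPM in hepatocyte and 8.96 ± 6.07 in endothelial nuclei, was not above the endothelial level in Primary Hepatocytes, although in Liver it was 105 ± 17.0 CPM in hepatocyte and 13.3 ± 3.84 in endothelial nuclei. The cultured values rested on 669 and 27 unspliced Apoh UMIs. Unspliced Apom was 0.919 ± 0.263 CPM in hepatocyte and 1.89 ± 3.09 in endothelial nuclei, and the ranges of unspliced Apoa1, Apoa2, Apoa5, Apoc3, Apoe, Apoh and Apom overlapped between the nuclei types in Primary Hepatocytes. Apoa4 had no unspliced UMI in endothelial nuclei of any sample. In droplets of at most 50 UMIs, which held 222682 to 686096 UMIs per pool, Apoa4 ranged from 13.2 to 53.2 CPM between pools, with at most 3.64 CPM unspliced. It was 13.2 and 18.0 CPM in pools 1 and 6, which held no Primary Hepatocytes, and 22.9 to 53.2 CPM in the 4 pools that did. The part of free RNA in that rise was not tested.

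**Figure D4:**
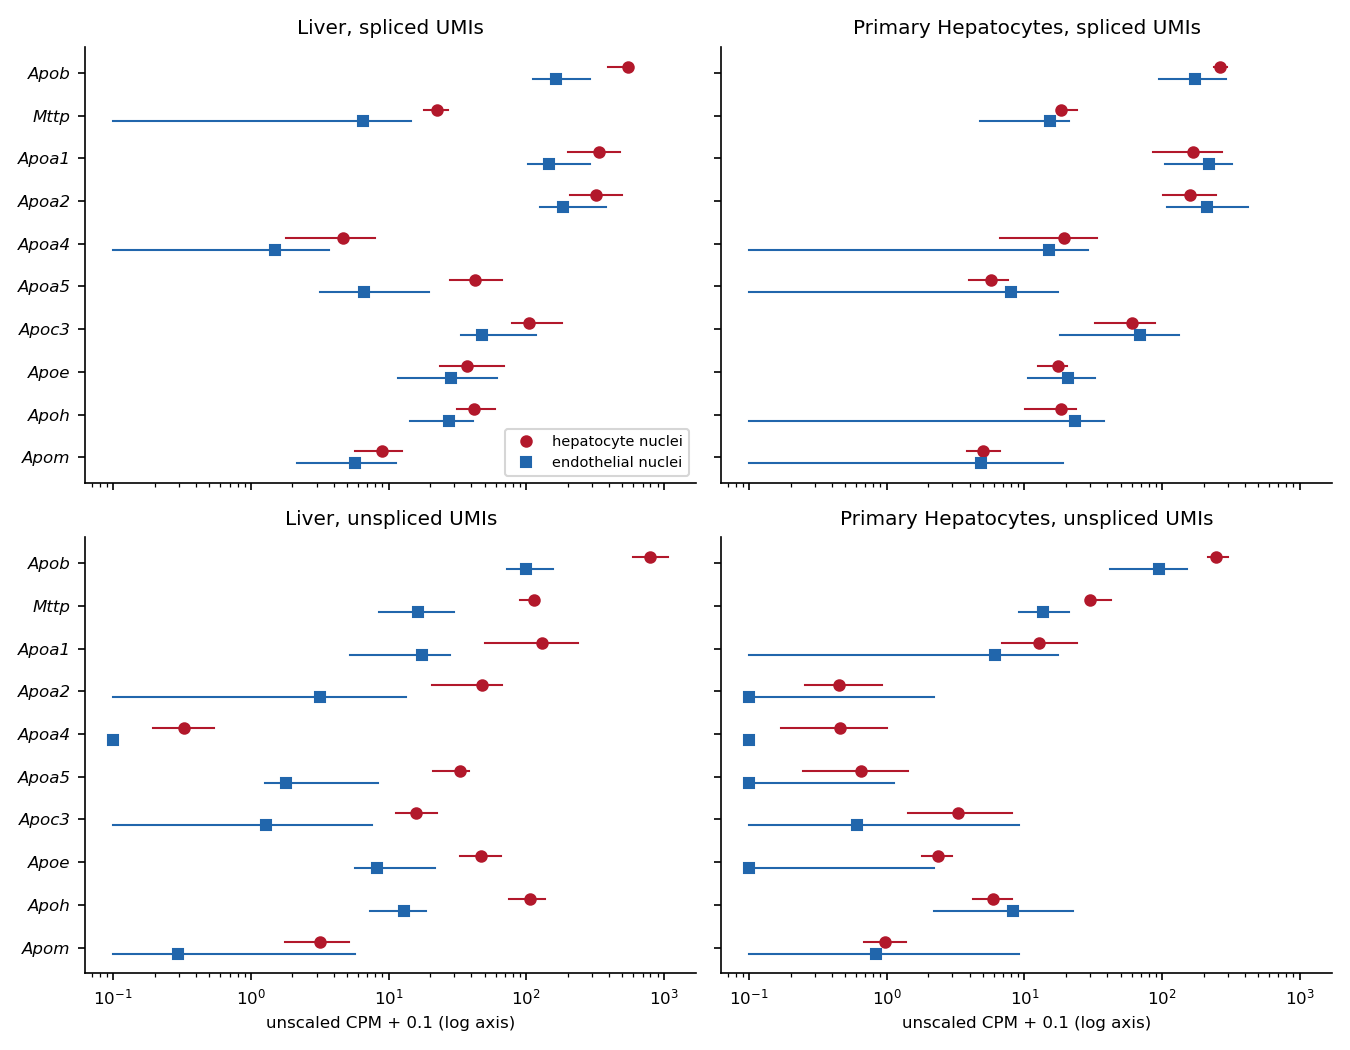
Unscaled CPM + 0.1 (log axis) of spliced and unspliced UMIs in hepatocyte nuclei (circles) and endothelial nuclei (squares) of Liver and Primary Hepatocytes, with the median and the range over 8 samples. Spliced levels of the cell types overlap in Primary Hepatocytes for all 10 genes, whereas unspliced Apob and Mttp stay apart there, and a point at 0.1 stands for no UMI.

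The ratio of hepatocyte to endothelial level within a sample compares the change in the 2 nuclei types. It does not remove free RNA, which the samples of a pool share, and it also moves with the depth of both types. Whether hepatocyte nuclei changed beyond free RNA was thus not tested. On the log2 scale of (CPM + 1) the ratio fell from Liver to Primary Hepatocytes in 8 of the 10 genes (two-sided exact permutation test, 8 against 8, adjusted over 18212 genes). Among those genes 9.62% fell and 28.7% rose by the same test, and the median difference was 0.42. In 4 of the 10, Mttp, Apoa1, Apoa2 and Apoh, every cultured sample was below every Liver sample, as in 2.87% of all genes compared. The fall was largest for Apoa5, from 2.67 ± 0.91 to 0.10 ± 1.36 (exact permutation adjusted p = 0.0066), and for Apoh, from 1.86 ± 0.45 to -0.32 ± 0.58 (exact permutation adjusted p = 0.0012). The endothelial side of Apoa5 rested on 99 UMIs in Liver and 30 in Primary Hepatocytes, with 0 in the lowest sample. That of Apoh rested on 358 and 127. Endothelial sums went down to 95289 UMIs per Primary Hepatocytes sample, so the size and rank of the Apoa5 fall are uncertain. Apob went from 2.21 ± 0.49 to 0.89 ± 0.45 and Mttp from 2.30 ± 0.52 to 0.86 ± 0.53, and the mean of both stayed above 0. The mean ratio in Primary Hepatocytes was below 0 for Apoa1, Apoa2, Apoc3, Apoe and Apoh. For Apoa4 the ratio differed by -0.48 (exact permutation adjusted p = 0.535) and for Apom by -0.73 (exact permutation adjusted p = 0.248), which leaves their total change not separated from that of endothelial nuclei.

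The share of nuclei with a UMI was read against the same background. In nuclei thinned to 1000 UMIs each (14579 of 15166 Liver and 15990 of 16283 Primary Hepatocytes hepatocyte nuclei were deep enough, and 2312 of 2474 and 1328 of 1809 endothelial ones), 74.4% of Liver hepatocyte nuclei held an Apob UMI on average over samples and 37.6% of Primary Hepatocytes nuclei, against 22.4% and 24.0% of endothelial nuclei. For Apoa1 the shares in Primary Hepatocytes were 17.6% and 16.1%, and for Apoa2 17.4% and 24.0%, so at equal depth the cultured hepatocyte share of both was near or below the endothelial one. Without thinning the hepatocyte shares in Primary Hepatocytes were 82.5% for Apob, 59.5% for Apoa1 and 58.5% for Apoa2, and the endothelial ones 38.7%, 29.8% and 39.0%. The median depth of a sample ranged from 4339 to 8449 UMIs in hepatocyte and from 996 to 3210 in endothelial nuclei of Primary Hepatocytes, and from 4390.5 to 13996 and 2199 to 4049 in Liver.

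Along the liver lobule, periportal and pericentral hepatocytes divide metabolic work. Within each sample the thinned hepatocyte nuclei were ranked by 8 periportal minus 8 pericentral genes, none of them a member, and the 33.3% at the portal end was compared with the 33.3% at the central end (log2 of CPM + 1, two-sided exact sign-flip permutation test over 8 mice). The smallest p that 8 mice allow is 0.0078, and none of the 10 genes passed in any sample type once p was adjusted over all genes at least as high as the lowest member (lowest exact permutation adjusted p = 0.095). That was the adjusted value of the smallest p, so no gene could pass and the outcome does not bear on the members. Without thinning the same smallest p had an exact permutation adjusted p of 0.042, and calls became possible. With the UMIs of all genes left unthinned and the same adjustment, 5 members were called higher and 1 lower at the portal end in Liver, on a background of 12.9% and 12.6% of all genes, 2 higher and 1 lower in Cell Suspension, on 11% and 8.78%, and 5 higher and 0 lower in Primary Hepatocytes, on 5.19% and 5.63%. The thinned values below are given as a description. At an unadjusted exact permutation p under 0.05, 3 members were lower and 3 higher at the portal end in Liver, on a background of 11.2% and 11.1% of 10457 genes, and 3 were lower and 2 higher in Cell Suspension, on a background of 12.1% and 15% of 7506 genes. In Liver, Apoa2, Apoe and Apoh were lower on the portal side in all 8 mice, with log2 differences of -0.19 ± 0.14, -0.38 ± 0.26 and -0.33 ± 0.28 (SD). Apoc3 had 0.43 ± 0.27, above 0 in 7 of 8 mice, and Apob 0.02 ± 0.10. In Cell Suspension Apoa4 had 2.17 ± 0.44, above 0 in 8 of 8 mice, with 35.8 CPM at the portal and 7.83 at the central end. Apob had -0.36 ± 0.14 there, below 0 in 8 of 8 mice. In 8 of 8 mice its value was lower than in Liver, which the sign-flip test paired by mouse did not call (exact permutation adjusted p = 0.052).

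In Primary Hepatocytes the ranking carried little information, since on average 73.9% of nuclei held a score equal to that at a cut, against 16.3% in Liver, and pericentral genes reached 302 CPM at the central end against 5579.8 in Liver. Periportal genes reached 1620 CPM at the portal end against 6699 in Liver, so the cultured ranking rested more on them than on pericentral genes. There 6 members had a higher and 0 a lower portal end at an unadjusted exact permutation p under 0.05, on a background of 6.62% and 7.88% of 10463 genes.

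The genes around the members gave a broader frame. Of 65 genes in 5 lists, 51 were lower and 4 higher in culture (Primary Hepatocytes against Liver), the median of their log2 fold changes being -1.65, on the background of all genes given above. The values below are log2 fold changes against Liver ± SE, each with an edgeR adjusted p under 0.05. Of 8 further apolipoproteins 6 were lower and none higher, and Apod and Clu did not pass. Apoc1, Apoc2 and Apoc4, which with Apoe form the cluster on chromosome 7, changed by -2.10 ± 0.17, -3.90 ± 0.20 and -3.28 ± 0.20. Saa4, a constitutive apolipoprotein of high density lipoprotein, changed by -3.06 ± 0.17. In unscaled CPM of Primary Hepatocytes, Apoc1 was 129 in hepatocyte and 220 in endothelial nuclei, and Apoc2 was 6.22 and 7.06. Apoc4 was 22.2 and 38.9 and Saa4 8.15 and 6.89, so these cultured levels were near or below the endothelial ones.

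Of 15 genes of particle assembly and secretion 10 were lower and 2, Vmp1 and Apobec1, higher. Sar1b, the GTPase of the coat that carries large lipoproteins out of the endoplasmic reticulum, was 189.8 ± 20.4 CPM in Liver, then 429 ± 84.8 in Cell Suspension and 36.8 ± 5.43 in Primary Hepatocytes (mean ± SD, n = 8), a rise of 1.18 ± 0.12 on isolation (edgeR adjusted p = 1.4e-08) followed by a log2 fold change of -2.37 ± 0.13 against Liver in culture. Dgat2, which makes triglyceride for the particle, changed by -3.15 ± 0.22, Sort1, a sorting receptor for apolipoprotein B, by -2.32 ± 0.32, and Mia2, a cargo factor at exit sites, by -1.71 ± 0.11. In Primary Hepatocytes, unscaled CPM in hepatocyte and endothelial nuclei were 49.4 and 52.7 for Sar1b and 66.1 and 33.6 for Dgat2. They were 24.6 and 17.5 for Sort1 and 440 and 232 for Mia2.

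Of 13 genes of plasma remodelling 10 were lower and 1, the hepatic lipase gene Lipc, higher. Endothelial lipase (Lipg) changed by -5.59 ± 0.36, the paraoxonase Pon1 by -5.14 ± 0.33, Angptl8, an inhibitor of lipoprotein lipase, by -4.09 ± 0.42, and Abca1, the exporter that lipidates apolipoprotein A-I, by -2.39 ± 0.16. Angptl8 had risen on isolation, from 74.5 ± 55.7 CPM to 244 ± 160 (mean ± SD, n = 8). Unscaled CPM in hepatocyte and endothelial nuclei of Primary Hepatocytes were 2.09 and 3.13 for Lipg and 8.85 and 8.89 for Pon1. They were 5.90 and 9.20 for Angptl8 and 126 and 375 for Abca1. None of these cultured hepatocyte levels was above the endothelial one.

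Of 11 receptors and their partners 8 were lower and Vldlr was higher. Lrp1 changed by -2.36 ± 0.12, Scarb1, the receptor for high density lipoprotein, by -2.26 ± 0.16, and the remnant-binding proteoglycan Sdc1 by -1.23 ± 0.23. On isolation 5 of these 11 genes were higher and none lower, with 8.15% of all genes called higher and 14.2% lower. Over all 5 lists 18 of the 65 genes were higher on isolation and 9 lower. Of 18 regulators 17 were lower in culture and none higher, and Foxo1 did not pass. The bile acid receptor gene Nr1h4 changed by -3.48 ± 0.15, Ppara by -3.39 ± 0.23, Creb3l3, a transcription factor for Apoa4 and Apoa5, by -3.78 ± 0.15, and the corepressor Nr0b2 by -5.05 ± 0.30.

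The genes whose levels over the 24 samples followed the mean of the 10 standardised members most closely were Serpina1b (Pearson r = 0.98), Serpina1d (0.98), Vtn (0.98), Serpina1a (0.98) and Apoc1 (0.97), of 3829 genes compared. These points share libraries and sample types, and Serpina1a, Serpina1b and Serpina1d are near-identical copies between which reads can be split. Serpina1b had 300.2 CPM in Liver, against 355 in Cell Suspension and 48.9 in Primary Hepatocytes.

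Neighbouring genes, in RefSeq's order, did not move as 1 block. Beside the cluster on chromosome 9, Sik3, 4436 bases away, changed by -0.77 and Zpr1, 1143 bases beyond Apoa5, by -1.11 in culture, while Pafah1b2 (0.21) and Bud13 (-0.28) did not pass. Next to Apoa2, the nuclear receptor gene Nr1i3 fell by 6.11 and Tomm40l, which overlaps Apoa2 in RefSeq, fell by 3.12 on the log2 scale. Tomm40, which lies 3 bases from Apoe, changed by -0.19 (edgeR adjusted p = 0.325). Trmt10a, 30 bases from Mttp in RefSeq, rose by 0.85 as Mttp fell, and Bag6 and Prrc2a beside Apom rose by 0.28 and 0.37.

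Because each mouse gave all 3 samples, the level of a gene in 1 sample type could be set against another over 8 mice. None of 30 correlations passed after adjustment (exact permutation of pairings), and 2 had an unadjusted p under 0.05. Apoh between Liver and Cell Suspension had r = 0.81 (exact permutation p = 0.015, adjusted p = 0.22) and rho = 0.86 (exact permutation p = 0.011), with r = 0.62 without the 2 mice farthest from the Liver median. Apob between Liver and Cell Suspension had r = 0.81 (exact permutation p = 0.014, adjusted p = 0.22) and rho = 0.67 (exact permutation p = 0.083), with r = 0.82 without 2 mice. Pools hold too few samples for correlations within them.

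The design set limits that touch several values. Scaling by library size alone moved the median over all genes of the change against Liver from 0.10 to 0.66 and the share of higher among called genes from 51.0% to 75.7%, and left the 9 falls past the threshold, at -0.95 (Apom) to -3.54 (Apoa5). Within pools 2 and 5, which hold both sample types, the 9 genes were lower in Primary Hepatocytes by 1.98 to 4.49 on the log2 scale. Pool 2 set 1 Primary Hepatocytes against 1 Liver sample and pool 5 set 2 against 1, too few for a test of the pools.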

How the data were processed

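Nuclei of 24 samples (8 mice, 3 sample types) were tagged with hashtag antibodies, mixed by 4 and captured in 6 pools. Per the labels and the study's methods, the authors made reads with bcl2fastq 2.19.0, mapped them with Salmon Alevin to a spliced and unspliced transcriptome of GRCm38, called nuclei, assigned samples by hashtag, removed doublets and clustered. As deposited, values are counts that were not normalized, with each matrix column a droplet, apart for spliced, unspliced and ambiguous UMIs. The total of UMIs per sample is given in the report. A suspension hashtag written CD2 was read as CS2.

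Counts were summed per sample and cell type. Hepatocyte nuclei were those of clusters annotated as hepatocytes or isolated hepatocytes, and of cultured clusters unless another type's marker list passed 1000 CPM, a limit chosen after seeing the data, which moved cluster 12 to endothelial and cluster 27 to stellate nuclei. Genes with at least 10 counts were tested with edgeR 4.0.16 (TMM, quasi-likelihood, sample type only, Benjamini-Hochberg over all genes, adjusted p under 0.05). Adjusted p-values without another name in the report come from edgeR. DESeq2 1.42.0 was an alternative. Sums of 1 splicing state were fitted with their own TMM factors and, added after the data were seen, with the library sizes and factors of all UMIs. Spliced shares and hepatocyte to endothelial ratios (pseudocount 1 CPM) were compared with exact permutation tests, enumerating every regrouping with numpy 2.4.6, and, like the sign-flip tests along the lobule, adjusted over all genes tested alike, an adjustment added after the data were seen. Scripts were tested on simulated data. Alternatives were other scalings, filters, pool or mouse as covariates, single splicing states, thinning and leaving out each mouse.

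The same number marks the same animal, from the study's methods. Over 3838 genes, deviations from the group means of Liver and Cell Suspension of 1 mouse correlated at 0.43 to 0.90 (median 0.76), of Liver and Primary Hepatocytes at -0.08 to 0.15 and of Cell Suspension and Primary Hepatocytes at -0.15 to 0.15.

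The genes and lists were chosen with earlier results of these data known. Named were the 10 genes, at most 4 called genes per list with the largest change among those of at least 50 CPM in a sample type, the 5 genes most alike over samples and the 2 nearest protein-coding neighbours on each side. Apod, Clu, Vmp1, Apobec1, Lipc, Vldlr and Foxo1 were named after their values were seen, to account for counts. Promoters come from RefSeq, with 1 gene, Apoc3, not in the table. Free RNA was not removed from the sums. The single values of 1 gene of the receptor list are not reported here.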

Additional observations from a re-analysis of the deposited data

Results flagged for a closer look

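For 8 genes the change from Liver to Primary Hepatocytes differed between hepatocyte and endothelial nuclei of the same samples, as the difference of the log2 ratio of (CPM + 1) by a two-sided exact permutation test of 8 against 8 samples, adjusted over 18212 genes. The differences were -2.57 for Apoa5, -2.18 for Apoh, -1.60 for Apoa1, -1.44 for Mttp, -1.32 for Apob, -1.30 for Apoa2, -1.20 for Apoc3 and -0.90 for Apoe. That of Apoa5 rested on only 99 endothelial UMIs in Liver and 30 in Primary Hepatocytes. In Mttp, Apoa1, Apoa2 and Apoh all 8 Primary Hepatocytes samples lay below all 8 Liver samples, in Apob and Apoa5 7 did, and in Apoc3 and Apoe 6 did. Among all genes compared, 2.87% had every Primary Hepatocytes sample below every Liver sample, and 9.62% had a lower ratio by the test. No sample stood apart from its group by Dixon's test in the 30 groups of 8 samples examined, where chance flags about 5% of groups.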

How the results depend on the processing

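The 9 falls from Liver to Primary Hepatocytes kept direction and threshold under every alternative run in hepatocyte nuclei, whereas Apoa4 lost its call with pool as covariate (0.95, adjusted p = 0.083) and in unspliced UMIs (0.25), which left 0 genes higher in both. Causes were not tested. Between Cell Suspension and Liver the count of lower genes was 1 with pool as covariate, 1 in spliced UMIs, 4 in unspliced UMIs and 1 with library size only, in place of 0, and an absolute log2 fold change over 1 left 1 higher gene in place of 3. Scaled by the factors of all UMIs, 6 genes were higher in spliced UMIs, and in unspliced UMIs 4 were lower and 1 higher on isolation, with 0 higher in culture. Apoa1 joined the higher genes with RLE scaling, filterByExpr, DESeq2, nuclei of at least 1000 UMIs, thinned sums, without cluster 8, and without mouse 5 or 6. In unspliced UMIs the count higher on isolation was 1 with library size only and 1 to 2 without any 1 mouse, where Apob lost its call (adjusted p = 0.057 to 0.084) without mice 1, 2, 4, 6, 7 or 8. The options of cluster 8, library size only, all alternatives on unspliced sums, the factors of all UMIs, the spliced ratio and adjustments over all genes were chosen after seeing the data.

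With mouse as a replicate block, the counts against Liver stayed at 9 lower and 1 higher, and the pairing changed no call in hepatocyte nuclei. In endothelial nuclei the block gave 2 lower genes against Cell Suspension in place of 1. In the spliced share the paired sign-flip test left Apoa4 between Primary Hepatocytes and Cell Suspension uncalled (exact permutation adjusted p = 0.081 over the 10 genes). The unpaired test gave it an exact permutation adjusted p of 0.061 over all genes and 0.026 over the 10 genes. For the unpaired tests, adjusting over the 10 genes in place of all genes thus called it and changed no other call of the share or the ratio. For the lobule differences between sample types, the unpaired test called 1 lower and 3 higher of 20 and the pairing by mouse left 0 lower and 0 higher. In the paired sign-flip test the smallest p, 0.0078, was 0.052 after adjustment over those 20.

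Endothelial unspliced UMIs gave 4 lower (Apoa1, Apoa2, Apoa5 and Apoe) and 0 higher of 9 genes against Liver, with 16.8% of all genes lower, and 2 lower against Cell Suspension, with 9.19%. Of these, Apoe, Apoa2 and Apoa5 had only 2, 1 and 1 unspliced UMIs in endothelial nuclei of Primary Hepatocytes. Correlations across mice passed 2 times in unspliced UMIs and 0 times in all states. Lobule calls, 6 lower and 8 higher of 30 when adjusted over the 10 genes alone, were 0 lower and 0 higher adjusted over all genes and also in unspliced UMIs. Adjusted over all genes, even the smallest p that 8 mice allow could not pass. When the members were not thinned they were 15 higher and 7 lower over the 10 genes alone, and the report gives those left by adjusting over all genes.

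Directions turned in values that were mostly uncalled. With library size only these were Apoa4 against Cell Suspension (0.20), on isolation Mttp (-0.10) and Apoe (-0.056), and in unspliced UMIs Apom against Cell Suspension (0.24) and Mttp on isolation (-0.016). With pool as covariate they were Mttp (-0.073) and Apoe (-0.017) on isolation and unspliced Apoa4 against Liver (-0.16). In unspliced UMIs on isolation they were Apoa5 (-0.019) and Apoe (-0.83, adjusted p = 2.1e-04), on the scale of all UMIs Mttp (-0.050), Apoa5 (-0.16) and Apoe (-0.98, adjusted p = 2.4e-05), with spliced Apoh (0.039) and Apom (0.028) there, thinning the sums gave Apom 0.083, and unspliced Apoa5 was 0.011 without cluster 8. Leaving out 1 mouse at a time, Apoe on isolation ranged from -0.060 to 0.16, unspliced Apoa5 from -0.055 to 0.011 and unspliced Apoc3 from -0.19 to 0.12, turning without mouse 1, without mouse 2 or 6, and without mouse 1 or 4. In endothelial unspliced UMIs they were Mttp (-0.25), Apoa1 (-1.07, adjusted p = 0.039) and Apoc3 (-0.22) against Liver, Apoc3 (-1.08) against Cell Suspension and Apoa2 (-2.11) on isolation. The Apoa4 ratio was 0.040 with a pseudocount of 10 and 0.15 unspliced. For the lobule, a narrower cut at both ends gave Mttp 0.028 and Apoh -0.047 in Primary Hepatocytes. Unspliced UMIs gave Apob -0.031, Apoa4 -0.00050, Apoa5 -0.22 and Apom -0.47 in Liver, Apom -0.22 in Cell Suspension, and Apob -0.14, Apoa2 -0.0066, Apoc3 -0.024, Apoe -0.48 and Apom -0.081 in Primary Hepatocytes. Unthinned members gave Mttp -0.048 in Liver and Apoa1 0.063 in Cell Suspension.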
